A study of Mus musculus with 8 samples.

Results

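Isolated intronic BRG1 sites were peaks of the SWI/SNF ATPase BRG1 inside an intron, away from every transcription start site (TSS). Of 82669 BRG1 peaks called on the pooled fragments of 3 replicates, 81327 lay on chromosomes 1 to 19 and 21134 of these overlapped a peak in each replicate. From these reproducible peaks the sites were chosen by position. They lay over 2 kb from every TSS of the GENCODE annotation of mm10 and overlapped a gene but no exon. They had no other TSS-distal reproducible peak within 12500 bp. Promoter peaks and peaks that were not reproducible did not count as neighbours and could lie nearer. The rule was met by 2080 peaks, 9.84% of the reproducible ones. BRG1 peaks chose the sites, so their BRG1 values are given as a description, whereas PBRM1 peaks and the DNA sequence did not enter the rule.

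The data came from chromatin immunocleavage sequencing (ChIC-Seq), in which an antibody brings micrococcal nuclease to the chromatin of its antigen and the cut fragments are sequenced. All libraries were made from WT primary uterine stromal cells of mice aged 8 to 12 weeks, labelled as D4 of pregnancy and described in the extraction protocol as pseudopregnant. Cells of 5 to 10 uterine horns were pooled, cultured for some hours and fixed, and the labels give 50000 cells per library. There were 3 replicates with a BRG1 antibody and 3 with a PBRM1 antibody, and 2 IgG libraries were not analysed here. The labels do not say whether replicates came from separate pools of mice. The spread between these libraries may therefore be technical, and p values speak only of these libraries. An exact permutation of 3 signs gives p = 0.25 whenever all 3 differences share a direction, whatever their spread. BRG1 replicates held 11506964 to 14595089 fragments and PBRM1 replicates 8868777 to 16505239. Promoter peaks of BRG1 were present at 10 of 14 stromal marker genes, such as *Vim* and *Hand2*, at 7 of 15 epithelial, 4 of 8 smooth muscle, 6 of 9 endothelial and 0 of 10 immune markers. Over all protein-coding genes 62.4% had one, and a promoter peak does not measure expression.

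SWI/SNF complexes use ATP to slide or evict nucleosomes. BRG1, encoded by *Smarca4*, is one of their alternative ATPases, and PBRM1 (BAF180) is a bromodomain subunit found in the polybromo-containing form of the complex. Distal elements bound by the complex often lie in introns, where an enhancer can act on its host gene or on another gene, and AP-1 is among the factor families known to recruit it there.

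The windows below were picked to show some forms of DNA at the sites with their host genes, each held by a minority. A repeated run of 31 bases was in 4.13% of the windows of all isolated intronic sites. CpG-rich sequence, defined below, was in 9.04%, and a match to the AP-1 motif in 13.75%. Windows with none of these features are not shown. Each window is the pooled BRG1 summit with 100 bases to either side, on the plus strand of mm10, read from the RefSeq assembly of that build. At the sites with the highest BRG1 and the highest PBRM1 enrichment, in *Camk1d* (a calmodulin-dependent kinase, chr2:5379225-5379425) and *Chl1* (a neural cell adhesion molecule, chr6:103649102-103649302), parts of the window recur elsewhere in the genome. Capitals mark the bases that lie in a run of 31 bases found more than once on chromosomes 1 to 19, X and Y.
Camk1d: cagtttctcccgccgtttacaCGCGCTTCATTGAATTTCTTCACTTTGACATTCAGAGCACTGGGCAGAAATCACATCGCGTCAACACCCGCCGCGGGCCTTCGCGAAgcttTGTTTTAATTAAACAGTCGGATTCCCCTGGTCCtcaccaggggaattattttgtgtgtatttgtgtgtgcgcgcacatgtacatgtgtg
Chl1: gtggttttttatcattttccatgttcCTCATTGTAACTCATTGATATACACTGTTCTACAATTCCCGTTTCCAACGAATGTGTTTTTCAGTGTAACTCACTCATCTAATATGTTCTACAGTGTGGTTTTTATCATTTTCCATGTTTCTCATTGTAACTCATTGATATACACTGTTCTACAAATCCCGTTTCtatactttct
In *Camk1d* 120 bases of the window stood in such a run, and in *Chl1* 165.

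Another group of windows was rich in CpG, the dinucleotide that marks most mammalian promoters. The hosts of 4 such sites are shown, with the CpG dinucleotides in capitals. They lie in *Fgfr2* (an FGF receptor, chr7:132551826-132552026), *Nfia* (an NFI transcription factor, chr4:97868940-97869140), *Batf* (an AP-1 family factor, chr12:85705618-85705818) and *Arid1b* (a SWI/SNF subunit, chr17:5189753-5189953).
Fgfr2: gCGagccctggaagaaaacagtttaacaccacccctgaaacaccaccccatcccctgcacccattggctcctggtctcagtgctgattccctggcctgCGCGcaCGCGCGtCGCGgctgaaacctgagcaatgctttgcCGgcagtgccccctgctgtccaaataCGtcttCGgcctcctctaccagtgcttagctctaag
Nfia: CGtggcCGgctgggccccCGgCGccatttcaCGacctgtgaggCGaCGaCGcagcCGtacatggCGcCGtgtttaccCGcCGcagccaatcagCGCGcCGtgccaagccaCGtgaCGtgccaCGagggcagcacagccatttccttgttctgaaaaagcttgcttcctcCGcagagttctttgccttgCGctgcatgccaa
Batf: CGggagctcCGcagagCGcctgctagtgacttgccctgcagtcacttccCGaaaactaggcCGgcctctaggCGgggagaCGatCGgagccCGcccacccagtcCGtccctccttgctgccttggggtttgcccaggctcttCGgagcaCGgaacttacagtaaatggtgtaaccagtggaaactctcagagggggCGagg
Arid1b: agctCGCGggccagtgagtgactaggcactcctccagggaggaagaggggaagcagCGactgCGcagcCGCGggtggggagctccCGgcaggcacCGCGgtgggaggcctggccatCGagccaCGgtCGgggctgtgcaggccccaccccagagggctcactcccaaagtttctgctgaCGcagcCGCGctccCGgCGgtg
The windows held 11, 21, 13 and 17 CpG dinucleotides, against a mean of 5.22 over all isolated intronic sites. GENCODE places all of them in introns, whereas RefSeq lists no gene at the *Fgfr2* site and an exon at the *Nfia* site.

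A last group held a match to the AP-1 motif TGANTCA, the letters read by FOS and JUN dimers, which is shown in capitals. The examples are *Insc* (an adaptor of spindle orientation, chr7:114817652-114817852), which had the highest BRG1 enrichment among sites with no PBRM1 peak, *Ltbp2* (a latent TGF-β binding protein, chr12:84862259-84862459) and *Map3k14* (a kinase of noncanonical NF-κB signalling, chr11:103246448-103246648).
Insc: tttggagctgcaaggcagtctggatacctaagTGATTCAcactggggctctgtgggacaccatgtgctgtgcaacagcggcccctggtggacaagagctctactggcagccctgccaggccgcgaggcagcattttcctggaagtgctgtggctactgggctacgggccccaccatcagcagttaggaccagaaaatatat
Ltbp2: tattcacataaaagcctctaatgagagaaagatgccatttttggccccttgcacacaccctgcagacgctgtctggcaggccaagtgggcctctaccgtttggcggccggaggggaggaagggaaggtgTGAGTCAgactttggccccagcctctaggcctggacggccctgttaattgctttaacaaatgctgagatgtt
Map3k14: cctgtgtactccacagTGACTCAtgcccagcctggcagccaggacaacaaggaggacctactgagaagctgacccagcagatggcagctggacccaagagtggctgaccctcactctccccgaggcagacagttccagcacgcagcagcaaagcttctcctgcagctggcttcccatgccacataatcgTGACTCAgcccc
The match began 68 bases before the summit in *Insc* and 29 bases after it in *Ltbp2*. *Map3k14* held 2 matches, the first of which began 84 bases before the summit.

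The isolated intronic sites were weaker and shorter than promoter sites. Enrichment is given as the authors' fold of the pileup over the local background of the same library, which does not put libraries on one scale. Their median pooled BRG1 fold was 6.42 (quartiles 5.42 and 7.76), whereas it was 6.98 at 2438 isolated intergenic sites, 5.83 at 499 intronic sites with a distal neighbour within 12500 bp (clustered intronic sites) and 8.59 at 14742 promoter sites. In the separate replicates the median at isolated intronic sites was 5.52, 5.35 and 5.42. Over the 3 replicates the median coefficient of variation of a site was 13.9%, and at 422 sites (20.3%) the highest replicate was over 1.5 times the lowest. The median peak length was 565 bp, against 805 bp at promoter sites.

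Enrichment had a long upper tail. Only 45 of the 2080 sites (2.16%) had a mean BRG1 fold over 10, and 7 had one over 20. The highest was the *Camk1d* site with 40.6, 38.3 and 38.5 in replicates 1, 2 and 3, a mean of 39.1 ± 1.24 (SD, n = 3), and PBRM1 folds of 18.9, 17.9 and 21.6. At the *Chl1* site, BRG1 folds were 41.3, 40.2 and 35.9 and PBRM1 folds 38.6, 39.3 and 41.9. The 3 replicates of both antibodies lay close together at *Chl1*, and at *Camk1d* every PBRM1 replicate was below every BRG1 replicate on these library-specific scales.

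Next came *Filip1l*, which encodes a filamin-interacting protein, with a mean BRG1 fold of 36.2 ± 1.13, the noncoding gene *Gm33838* with 34.2 ± 0.947, *Jarid2*, a subunit of the Polycomb repressive complex PRC2, with 31.3 ± 1.47, and *Cdk8*, the kinase of the Mediator complex, with 29.1 ± 0.348 (SD, n = 3 each). A gap separated *Cdk8* from *Kctd16*, an auxiliary subunit of GABA-B receptors, where the replicates were 17.8, 18.05 and 25.1. *Gphn*, the scaffold protein gephyrin, followed at 17.8 ± 1.41. Of these 8 sites, 7 held a repeated run of 31 bases in the window, and *Kctd16* held none. Over all isolated intronic sites 86 (4.13%) did, with a median BRG1 fold of 5.65 against 5.43 for the rest. At 6 of them most of the window recurred, in that the median run was found more than once, and these 6 had a median fold of 12.4 against 5.44 for all other sites. The whole *Gm33838* window lay in annotated repeats. Peaks were called without a control library, and no list of artefact-prone regions was removed here. Signal from sequence copies was therefore not separated from binding, and its part in the highest folds was not tested.

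**Figure D1:**
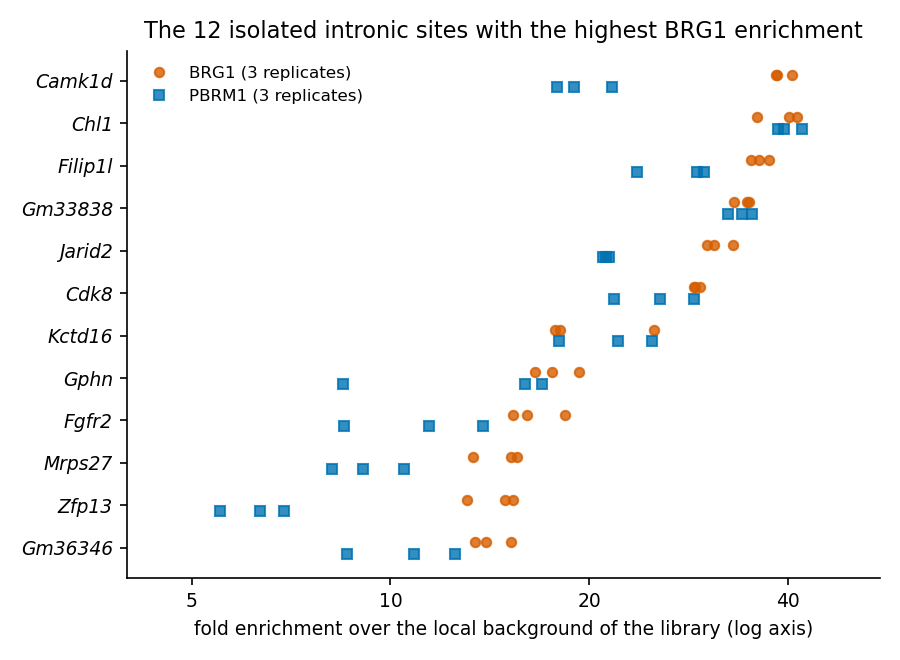
Fold enrichment (log axis) of BRG1 (circles) and PBRM1 (squares) in each of 3 replicates at the 12 isolated intronic sites with the highest mean BRG1 fold, named by host gene. All 12 had a PBRM1 peak in each replicate, BRG1 means ran from 39.1 in Camk1d to 14.2 in Gm36346, and at Zfp13 the PBRM1 mean was 6.26 against 14.4 for BRG1.

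With no repeated run in the window, *Fgfr2*, *Mrps27*, *Zfp13* and *Gm36346* completed the 12 highest sites. BRG1 folds at the *Fgfr2* site were 16.1, 15.3 and 18.4 and PBRM1 folds 13.8, 11.5 and 8.51. *Mrps27*, a protein of the mitochondrial ribosome, had a BRG1 mean of 14.7 ± 1.19, the zinc finger gene *Zfp13* had 14.4 ± 1.22 and the noncoding *Gm36346* had 14.2 ± 0.925 (SD, n = 3 each). All of these windows were CpG-rich, with at least 50% GC and a CpG count of at least 0.6 of that expected from the C and G content. RefSeq places the *Gm36346* site in an exon.

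PBRM1 peaks were found at part of the isolated intronic sites, and the share varied between replicates. PBRM1 replicates 1, 2 and 3 had a peak at 885 (42.5%), 1160 (55.8%) and 1026 (49.3%) of the 2080 sites, a mean share of 49.2% ± 6.61 (SD, n = 3). The 95% Wilson intervals, which cover counting error only, were 40.4% to 44.7%, 53.6% to 57.9% and 47.2% to 51.5% and did not overlap. In the pooled PBRM1 list, which rests on all 3 libraries and reaches weaker peaks, 1904 sites (91.5%, 90.3% to 92.7%) had a peak, whereas 97.1% of all reproducible BRG1 peaks did.

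The sites fell into near-equal groups by the number of PBRM1 replicates with a peak. All 3 had one at 511 sites (24.6%), 2 at 500, 1 at 538 and none at 531 (25.5%). Over all reproducible BRG1 peaks, 60.6% had a PBRM1 peak in all 3 replicates and 9.76% in none. The median BRG1 fold was 6.45 at sites with PBRM1 in all 3, then 5.43, 5.25 and 5.00 as the number fell. At the 1904 sites with a pooled PBRM1 peak the summits of both proteins were a median of 53 bp apart, with 34, 55, 63 and 67 bp at sites with PBRM1 in 3, 2, 1 and 0 replicates. Among these 511 sites the mean PBRM1 fold exceeded the mean BRG1 fold at 81.

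**Figure D2:**
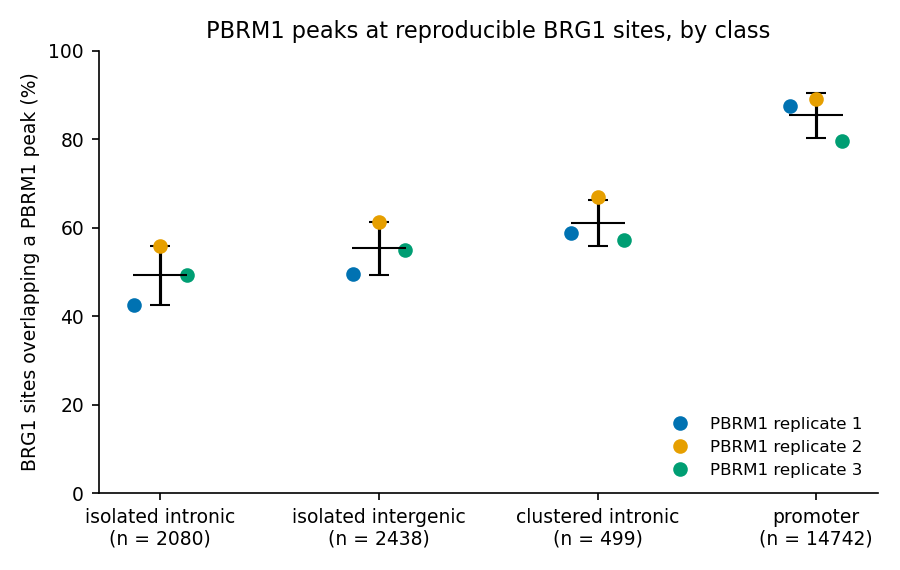
Share of reproducible BRG1 sites (%) that overlapped a PBRM1 peak, by class of site. Points are the 3 PBRM1 replicates and bars give their mean and SD. Isolated intronic sites had the lowest share in every replicate, with a mean of 49.2%, and promoter sites the highest, with 85.4%.

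The share of sites with PBRM1 was then compared with the other classes within each PBRM1 library. Isolated intronic sites had a lower share than isolated intergenic sites, which averaged 55.3% ± 5.91 (SD, n = 3), in each library, with differences of −7.04, −5.63 and −5.64 percentage points. The mean difference was −6.10 points (two-sided exact permutation test over the signs of the 3 differences, p = 0.25, the smallest that 3 libraries allow). Against clustered intronic sites (61.1% ± 5.15) the differences were −16.4, −11.2 and −7.99 points, with a mean of −11.8 points. Against promoter sites (85.4% ± 5.14) they were −44.9, −33.4 and −30.2 points, with a mean of −36.2 points. The latter tests gave p = 0.25 as well, which is again the smallest an exact permutation of 3 signs can give. The direction was the same in 3 of 3 libraries in each comparison, and the design could not pass a threshold of 0.05.

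PBRM1 peaks were more frequent where BRG1 was stronger. In quintiles of the isolated intronic sites by mean BRG1 fold, the mean PBRM1 share was 32.7%, 38.2%, 47.0%, 53.3% and 74.9% from the weakest to the strongest. Each PBRM1 library rose across the 5 groups, from 25.0% to 71.2% in replicate 1, from 39.2% to 76.7% in replicate 2 and from 33.9% to 76.9% in replicate 3. Isolated intergenic sites within the same bounds of BRG1 fold had 30.2%, 38.6%, 45.3%, 57.8% and 79.5%. Within quintiles the difference to intergenic sites shrank to −1.04 points. It remained −12.9 points against clustered intronic sites and −23.5 points against promoter sites (exact permutation test, p = 0.25 each). The quintiles match the fold over local background only. By median pooled −log10 q, clustered intronic sites were stronger than isolated ones, at 22.8 against 19.2. The highest quintile has no upper bound and held 9113 of 14742 promoter sites, so strength was not fully matched.

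**Figure D3:**
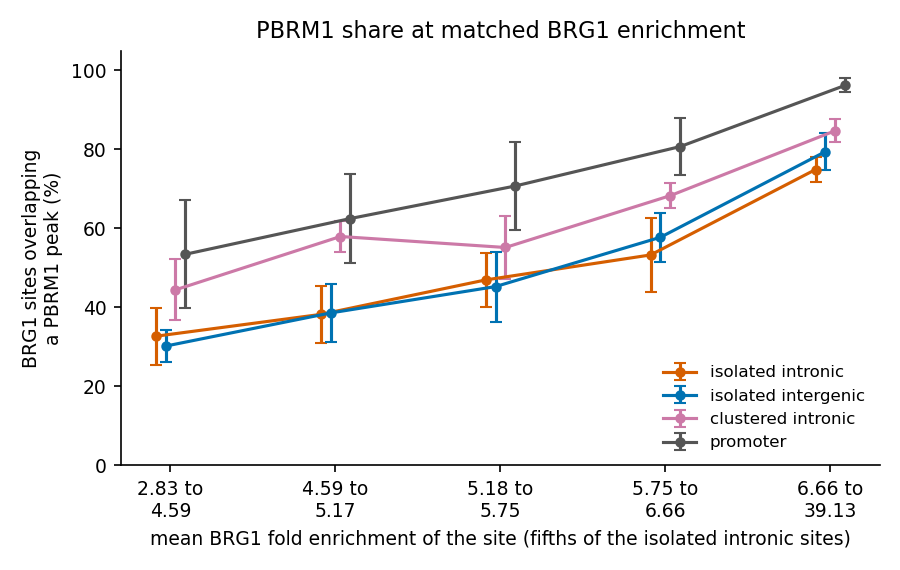
Share of BRG1 sites (%) that overlapped a PBRM1 peak in quintiles of mean BRG1 fold enrichment, whose bounds were set on the isolated intronic sites. Points and bars are the mean and SD of 3 PBRM1 replicates. Isolated intronic and intergenic sites ran together, from 32.7% and 30.2% in the lowest quintile to 74.9% and 79.5% in the highest, below promoter sites at 53.5% and 96.2%.

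No PBRM1 peak was called at some sites with high BRG1 folds, which in these libraries does not show that the protein was absent. In all, 176 sites had no pooled PBRM1 peak, and the highest BRG1 enrichment among sites without any PBRM1 peak was in *Insc*, whose BRG1 folds were 8.97, 8.50 and 10.4. Next were *Adamts9*, an extracellular metalloproteinase, with 8.66 ± 1.67, *Nos1*, the neuronal nitric oxide synthase, with 7.51 ± 1.47, the noncoding *Gm34466* with 7.36 ± 0.756, and the kinase gene *Mast4* with 7.31 ± 2.54 (SD, n = 3 each). *Mast4* varied most, with 8.85, 4.38 and 8.69 in the replicates. None of these 5 windows was CpG-rich, and those of *Insc* and *Nos1* held an AP-1 match. RefSeq places the *Adamts9* site in an exon and the *Nos1* site outside genes.

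The design also allowed both antibodies to be compared by how many of their own peaks were intronic. Of all peaks of a library on chromosomes 1 to 19, the share in an intron and over 2 kb from every TSS was 13.2%, 16.5% and 16.0% for PBRM1 and 22.6%, 20.9% and 21.6% for BRG1. Every PBRM1 replicate was below every BRG1 replicate, with means of 15.3% ± 1.78 and 21.7% ± 0.867 (SD, n = 3), a difference of −6.47 points (p = 0.1 in an exact permutation of the 6 libraries, two-sided, which is the lowest that 3 against 3 can reach). Replicate numbers are shared between the antibodies, and with the number as a block the same difference of −6.47 points had p = 0.25 by an exact permutation of signs, the lowest that 3 pairs can reach. BRG1 libraries held 35880 to 39831 of these peaks and PBRM1 libraries 21497 to 25822. With peaks of −log10 q of at least 5 the share was again lower for PBRM1, at 8.03% against 14.02%. Among the 10000 peaks with the highest −log10 q of each library the direction of the means turned, with 4.48% ± 1.29 for PBRM1 and 3.78% ± 0.107 for BRG1 (difference 0.693 points, exact permutation test, p = 0.5). There PBRM1 replicate 1, at 3.24%, was below every BRG1 replicate, and replicates 2 and 3, at 4.38% and 5.81%, were above.

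Host genes were long. The 2080 sites lay in 1587 genes, of which 1349 were protein-coding and held 1811 sites. The remaining 269 sites lay in other genes, with 175 in lincRNA genes, 52 in antisense genes and 28 in processed transcripts. Protein-coding hosts had a median length of 106197 bp, against 17629 bp for all 20807 protein-coding genes, of which 6.48% were hosts. The share of hosts rose from 0.805% of genes with up to 10 kb of eligible intron (outside exons and over 2 kb from every TSS) to 35.1% of genes with over 300000 bp. Per Mb of eligible intron the density was highest, at 3.10 sites, in genes with 30 to 100 kb and lowest, at 1.23 sites, in those with over 300000 bp.

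Hosts usually had BRG1 at their own promoter. A reproducible BRG1 promoter peak was present at 1145 of 1349 protein-coding hosts (84.9%) and at 60.8% of the other protein-coding genes, against 62.4% of all. Among genes with 30 to 100 kb of eligible intron the shares were 88.0% of hosts and 74.0% of the rest. Genes with a BRG1 promoter held 2.69 sites per Mb of eligible intron and those without 1.14. PBRM1 had a peak at the intronic site in a mean share of 48.9% ± 6.71 where the host had a BRG1 promoter peak and 47.8% ± 6.46 where it had none (SD, n = 3 PBRM1 libraries), and the order of these groups was not the same in every library.

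Most hosts held a single site. Of the protein-coding hosts 1043 had 1 site, 226 had 2 and 80 had 3 or more. The highest count, 26, was in *Gm20388*, a predicted gene that GENCODE draws over 4434882 bp (chr8:119910841-124345722), and all 26 lay in its first intron. RefSeq places 16 of them outside genes and 7 in introns of other gene models. In *Fgfr2* (chr7:130162451-133123350) 8 sites lay in intron 2, which is 2908817 bp long in the transcript used, and RefSeq has none of the 8 in a gene. The counts for both hosts therefore rest on the length of the GENCODE model.

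Shorter hosts with many sites included *Maml3*, whose gene is 419170 bp long. It encodes a coactivator of Notch and held 7 sites with mean BRG1 folds of 4.33 to 8.00, of which 2 had PBRM1 in all 3 replicates and 2 in none. *Chst11*, a chondroitin sulfotransferase, held 6 with folds of 4.72 to 7.49 and PBRM1 in all 3 replicates at 3 of them. The gene *Kalrn*, the recombination gene *Rad51b* and the adhesion gene *Sdk2* had 6 each. The forkhead gene *Foxn3*, the IGF receptor gene *Igf1r* and the potassium channel gene *Kcnma1* were among 7 genes with 5. At *Foxn3* the sites were weak, with folds of 4.37 to 4.93, and 4 of 5 had no PBRM1 replicate peak. All 10 of these hosts, *Gm20388* and *Fgfr2* included, had a BRG1 promoter peak, as did 84.9% of all protein-coding hosts.

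**Figure D4:**
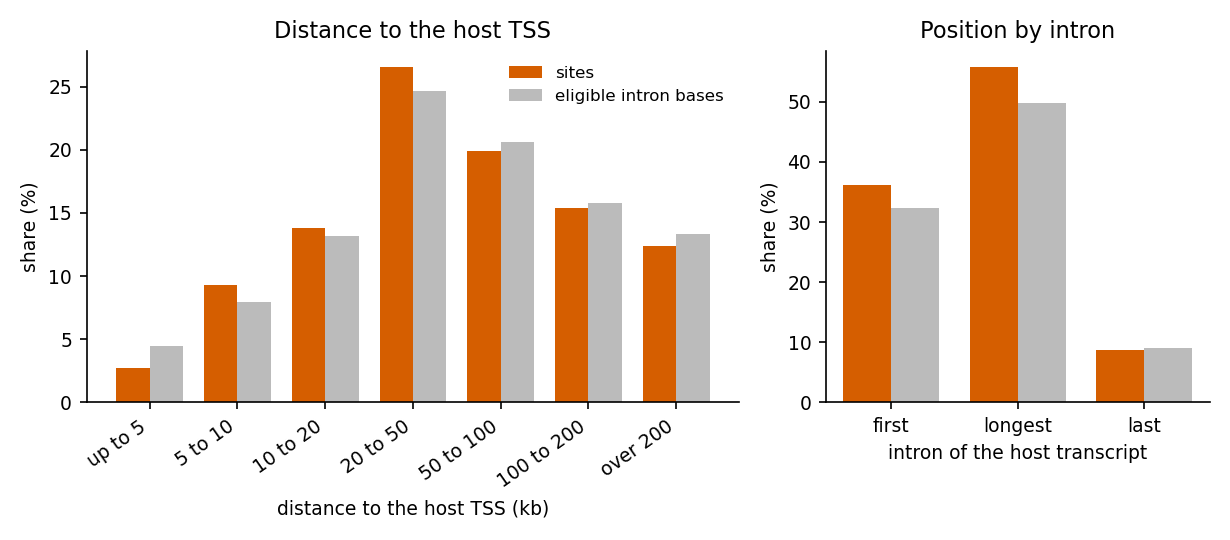
Left, share (%) of the 1811 sites in protein-coding hosts and of the eligible intron bases of the same transcripts by distance to the host TSS (kb). Right, the same shares for the first, longest and last intron. Bases were counted singly, whereas whole peaks had to meet the rule. The first intron held 36.2% of sites and 32.3% of bases, the longest 55.7% and 49.9%, and up to 5 kb from the TSS the share of sites was 0.617 times that of bases.

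Within the hosts, sites were somewhat more frequent in the first and the longest intron than the eligible bases were, and less frequent next to the TSS. The first intron held 788 sites (37.9%, 95% Wilson interval 35.8% to 40.0%), the second 445 (21.4%), the third 220 (10.6%) and later introns 627 (30.1%). In protein-coding hosts the first intron held 36.2% of sites (34.0% to 38.4%) and 32.3% of eligible bases, and the longest intron held 55.7% and 49.9%. The interval covers counting error and treats sites as independent, although some share a host. Eligible bases were counted singly, whereas a whole peak, with a median length of 565 bp, had to meet the rule. Short introns and bases just beyond the 2 kb limit could therefore hold fewer sites than their bases imply. The part of this in the shares by intron and by distance was not tested. The median distance to the host TSS was 42021 bp, with 14.2% of sites within 10 kb and 532 sites (25.6%) over 100 kb away. By distance, the ratio of the share of sites to the share of bases ran from 0.617 up to 5 kb to 1.17 at 5 to 10 kb and 0.926 beyond 200 kb.

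Sites in the first intron of protein-coding hosts had PBRM1 at 51.6% ± 5.65 and those in later introns at 47.2% ± 7.24 (SD, n = 3). The first intron was higher in each library, by pairs of 46.0% and 39.7%, 57.3% and 54.2%, and 51.5% and 47.8%. The difference was not tested. Median BRG1 folds were 5.40 and 5.41 in these groups.

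By the rule, every site was over 12500 bp from other TSS-distal reproducible peaks, and most gaps were longer. Promoter peaks and peaks that were not reproducible were again left out. The median gap to the nearest other TSS-distal reproducible BRG1 peak was 62216 bp, and 746 sites (35.9%) had none within 100 kb. The nearest TSS of any gene was at a median of 11654.5 bp. Just inside the isolation limit were the sites in *4930461G14Rik* and *Notch1*, with gaps of 12558 and 12581 bp, and just outside it those in *Grasp* and *Ap3s2*, with 12432 and 12426 bp. Just inside the TSS limit were sites in *Gm47882* and *Cwc22* at 2001 and 2006 bp, and just outside it those in *Fgf2* and *Rph3al* at 1992 and 1982 bp. Inside the limits, the mean BRG1 fold was 5.50 in *4930461G14Rik*, 7.37 in *Notch1*, 7.12 in *Gm47882* and 3.67 in *Cwc22*. Outside them it was 3.50 in *Grasp*, 6.22 in *Ap3s2*, 5.48 in *Fgf2* and 4.70 in *Rph3al*.

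Each of the 6 signalling lists examined (FGF, BMP and TGF-β, WNT, steroid receptor, Hippo, and MAPK and RAP1) held at least 1 host. FGF ligands from the stroma act on epithelial receptors, BMPs and WNTs serve decidualization, and steroid receptors direct both. Since hosts are long genes, each list is read beside the 6.48% of all protein-coding genes that were hosts. All protein-coding genes had a median length of 17629 bp. The genes of the lists were longer, with a median of 56528 bp for FGF, 43041 bp for WNT, 113656 bp for steroid receptor, 43366 bp for Hippo, 74210.5 bp for MAPK and RAP1, 64411 bp for extracellular matrix, 55040 bp for transcription factor and 33594 bp for SWI/SNF genes, whereas AP-1 factor genes had 11099 bp. The PBRM1 counts of a list are read beside the shares over all isolated intronic sites, of which 24.6% had a PBRM1 peak in all 3 replicates, 25.5% in none and 91.5% in the pooled list. From the weakest to the strongest quintile of BRG1 fold, the share with all 3 went from 7.69% to 57.0%. The share with none went from 38.2% to 9.13%. The lists were not matched for BRG1 fold. Counts refer to genes on chromosomes 1 to 19, and the host of a site need not be the gene on which it acts.

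Of 17 FGF ligands, receptors and feedback genes, 5 were hosts and held 12 sites, 8 of them in the long *Fgfr2* model. Besides the strongest one, the *Fgfr2* sites had mean BRG1 folds of 3.67 to 6.74, and the weakest of them had PBRM1 in all 3 replicates. The ligand gene *Fgf18* carried 1 site in its last intron with BRG1 folds of 7.90, 7.98 and 9.85 and PBRM1 folds of 7.21, 6.66 and 5.24. The first intron of *Fgf1*, also a ligand, had BRG1 folds of 6.63, 8.78 and 6.73 and PBRM1 folds of 7.28, 7.81 and 4.03. Both ligand sites had PBRM1 in every replicate. A site in the ligand gene *Fgf2* was weaker, at 3.76 ± 0.517, with PBRM1 in 1 replicate, and *Spred2*, an inhibitor of the pathway, had 4.32 ± 0.184 (SD, n = 3) and PBRM1 in none, at a place where RefSeq has an exon.

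Of 30 BMP, TGF-β and SMAD genes, 9 were hosts of 11 sites. All 30 had a BRG1 promoter peak, as did 62.4% of all protein-coding genes and all 21 genes of the Hippo list. The median length of the 30 genes was 69184 bp. The strongest sites were in *Ltbp2*, with BRG1 folds of 8.71, 8.69 and 7.42, in the BMP type I receptor gene *Acvr1*, with 6.59, 5.76 and 11.8, and in *Ski*, a repressor of SMADs, with 6.99, 7.54 and 7.31. *Acvr1* rested on a high replicate 3, whereas *Ski* was even. All of these had PBRM1 in 3 replicates. The receptor gene *Tgfbr2* had 2 sites of like BRG1 enrichment, 5.58 ± 1.60 in intron 1 with PBRM1 in no replicate and 5.31 ± 0.302 (SD, n = 3) in intron 5 with PBRM1 in all 3.

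Of 31 WNT genes, 10 were hosts of 11 sites, and none of these sites had PBRM1 in all 3 replicates, while 5 had it in none, against 24.6% and 25.5% of all isolated intronic sites. The mean BRG1 folds of the 11 sites had a median of 5.10 and reached 6.36. All were thus below the strongest quintile, which began at 6.66. The secreted inhibitor *Sfrp1* was highest with 5.41, 6.55 and 7.13. The ligand gene *Wnt5b* followed with 4.85, 8.64 and 5.19, and the R-spondin gene *Rspo3*, an agonist, with 6.08, 5.35 and 5.00. PBRM1 had a peak in 2 replicates at *Sfrp1* and in none at the strongest *Wnt5b* site or at *Rspo3*. Sites also lay in *Wnt4*, whose product drives decidualization, at 3.92 ± 0.356, and in the receptor genes *Ror1* at 5.07 ± 1.01 and *Ror2* at 5.10 ± 0.767 (SD, n = 3 each).

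Of 14 steroid receptor and coregulator genes, 2 were hosts with 1 site each. The first intron of *Esr1*, the estrogen receptor α gene, had BRG1 folds of 4.401, 3.97 and 4.99 and PBRM1 in 2 replicates, and RefSeq places this site in an exon. The coactivator gene *Ncoa3* had 5.24, 5.77 and 4.73 with PBRM1 folds of 4.73, 5.12 and 4.25. Over all isolated intronic sites the median of the mean fold was 5.44 and the lower quartile 4.74, so the *Esr1* site was among the weaker ones.

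Of 21 Hippo pathway genes, which relay cell density and tension to TEAD factors, 4 were hosts of 8 sites. *Tead1* held 4 of them with mean BRG1 folds of 5.14 to 5.67, *Wwtr1*, which encodes the coactivator TAZ, held 2, and the kinase gene *Lats2* and the TEAD cofactor gene *Vgll4* held 1 each. The *Wwtr1* site with the higher mean was uneven, at 3.85, 9.31 and 6.29. Of 34 MAPK and RAP1 genes, 8 were hosts with 1 site each, led by *Map3k14* with 7.17, 6.86 and 9.10 and *Rassf5*, an effector of RAP1 and RAS, with 5.30, 6.36 and 6.58. PBRM1 was in all 3 replicates at these 2 and at none of the other 6.

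Of 42 genes of the actin cytoskeleton and adhesion, 15 were hosts of 22 sites, and the genes of this list had a median length of 129353 bp. All 22 sites had a pooled PBRM1 peak, 6 had PBRM1 in all 3 replicates and 3 in none, where the shares over all isolated intronic sites were 91.5%, 24.6% and 25.5%. The tensin gene *Tns1*, which links integrins to actin, held 4 sites, the strongest with BRG1 folds of 7.42, 5.87 and 11.1. The α-actinin gene *Actn1* had 7.79, 6.79 and 8.52, and the strongest of 2 sites in *Tns3* had 5.45, 8.91 and 7.68. Of 41 extracellular matrix genes, 9 were hosts of 13 sites. *Adamts2*, a procollagen peptidase, was highest at 7.95 ± 1.96 with PBRM1 in all 3 replicates, followed by the metalloproteinase inhibitor *Timp3* at 7.26 ± 1.84 and *Fbln5*, an elastic fibre protein, at 6.39 ± 1.01 (SD, n = 3), each with PBRM1 in 1.

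Of 47 Müllerian and mesenchymal transcription factor genes, 12 were hosts of 18 sites. The mean BRG1 folds of these sites had a median of 5.09, against 5.44 over all isolated intronic sites. PBRM1 had no replicate peak at 10 of the 18 and a peak in all 3 replicates at 3, against 25.5% and 24.6% of all isolated intronic sites, and 15 had a pooled PBRM1 peak, against 91.5%. The 3 with PBRM1 throughout were also those with the highest BRG1 means, in *Nfia* (7.17, 10.0 and 10.7), *Nfib* (9.07, 5.97 and 6.07) and the mesenchymal factor *Twist2* (7.09, 5.65 and 6.69). At *Nfia* the PBRM1 folds were 4.59, 5.58 and 4.41. Of the 5 sites in *Runx1* and *Runx2*, RUNX family factors, 4 had PBRM1 in no replicate, and so did sites in *Pax8*, *Ebf1*, *Zeb2* and *Tcf4*, whose mean BRG1 folds were 4.34, 4.79, 5.35 and 4.94.

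Genes of the complex itself were hosts as well. Of 29 SWI/SNF subunit genes, 3 were hosts of 5 sites, and all 5 had PBRM1 in each replicate, whereas 24.6% of all isolated intronic sites did. The mean BRG1 folds of the 5 sites had a median of 6.30, against 5.44 over all isolated intronic sites. *Arid1b*, the ARID subunit of the canonical complex, held 3. The strongest had BRG1 folds of 10.2, 10.9 and 9.47 and PBRM1 folds of 7.91, 11.3 and 7.09. Its paralog *Arid1a* had 6.96, 6.51 and 9.02 for BRG1 and 5.50, 5.71 and 7.03 for PBRM1. The core subunit gene *Smarcb1* had 6.48, 6.16 and 6.27 for BRG1 and 4.96, 6.12 and 7.83 for PBRM1. Of 13 AP-1 factor genes, 2 were hosts with 1 site each, *Batf* with BRG1 folds of 8.38, 8.77 and 8.12 and *Atf3* with 3.95, 4.43 and 4.19, and RefSeq places the latter outside genes.

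Some markers of other cell types were hosts. They were 4 of 9 endothelial, 1 of 15 epithelial, 1 of 10 immune and 0 of 8 smooth muscle markers, beside 1 of 14 stromal markers. The endothelial hosts held a site each, with mean BRG1 folds of 7.48 ± 1.19 in *Vwf*, 6.38 ± 0.742 in *Erg*, 5.54 ± 1.54 in *Tek* and 4.17 ± 0.379 in *Pecam1* (SD, n = 3). PBRM1 had a peak in all 3 replicates at *Vwf* and *Tek*. The epithelial gene *Grhl2* had a mean of 5.68 ± 0.951 and the macrophage receptor gene *Csf1r* 6.76 ± 1.39, and among stromal markers *Pdgfrb* had 4.31 ± 0.479 (SD, n = 3). The median lengths were 91119 bp for the endothelial and 15805.5 bp for the stromal markers. Whether cells other than stromal cells gave these peaks was not tested.

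Of the genes that the study proposed as targets of PBRM1 and BRG1, 161 were protein-coding genes on chromosomes 1 to 19, and 27 of these held 31 isolated intronic sites. The share of hosts was 16.8%, against 6.48% of all protein-coding genes. Per Mb of eligible intron, however, the 161 genes held 1.88 sites, a lower density than the 2.298 of all protein-coding genes. The study chose that list with these same peaks, together with lower RNA and changed chromatin accessibility in cells without PBRM1. The count is therefore not independent evidence. The highest site was in *Slco2a1*, the prostaglandin transporter, with BRG1 folds of 11.0, 9.79 and 9.50 and PBRM1 folds of 5.74, 5.04 and 6.40. The F-box gene *Fbxo17* had 8.63 ± 0.936 and the formin-related WNT effector *Daam2* 8.60 ± 1.06 (SD, n = 3), each with PBRM1 in replicate 1 alone. *Batf* and *Fam189a1* followed, with BRG1 means of 8.43 ± 0.327 and 7.69 ± 0.758 and PBRM1 in every replicate. Of the 31 sites 6 had PBRM1 in all 3 replicates and 6 in none, beside 24.6% and 25.5% of all isolated intronic sites.

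By composition, isolated intronic sites differed from the DNA beside them. The windows of 100 bases to either side of the summit had 55.2% GC and 5.22 CpG on average, whereas windows 1500 bp to either side had 46.4% GC and 2.23 CpG. Only 7.11% of the bases at the summits were in annotated repeats (soft-masked), against 23.2% beside them. The authors removed reads that mapped to several places, and the part of this in the repeat shares was not tested. Isolated intergenic and clustered intronic summits had 56.1% and 58.1% GC, against 45.8% and 49.6% beside them. Repeats made up 7.02% and 6.42% at these summits, against 29.0% and 21.9%. Even so, most windows at isolated intronic sites were not like promoters: 188 (9.04%, 95% Wilson interval 7.88% to 10.3%) were CpG-rich, against 0.841% of the flanking windows, 19.5% of isolated intergenic, 11.4% of clustered intronic and 78.2% of promoter sites.

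CpG-rich sites, such as those in *Fgfr2*, *Nfia*, *Batf* and *Arid1b* printed above, had PBRM1 more often. The share was 65.4%, 68.1% and 59.6% in PBRM1 replicates 1, 2 and 3, against 40.3%, 54.5% and 48.3% of the other 1892 sites, so that each library was higher at CpG-rich sites. They also had more BRG1, with a median fold of 6.42 against 5.39. In the highest quintile of BRG1 fold the PBRM1 share was 89.8% ± 1.36 at 85 CpG-rich sites and 71.1% ± 3.75 at 331 others, while in the middle quintile it was 38.9% ± 8.39 at 30 and 47.6% ± 7.12 at 386 (SD, n = 3). CpG-rich sites were also higher in the weakest quintile, at 38.9% against 32.3%, and differed by less in the next, at 38.3% against 38.2%, and in quintile 4, at 55.2% against 53.1%. In the highest quintile the CpG-rich sites had more BRG1 too, with a median fold of 8.58 against 7.48.

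**Figure D5:**
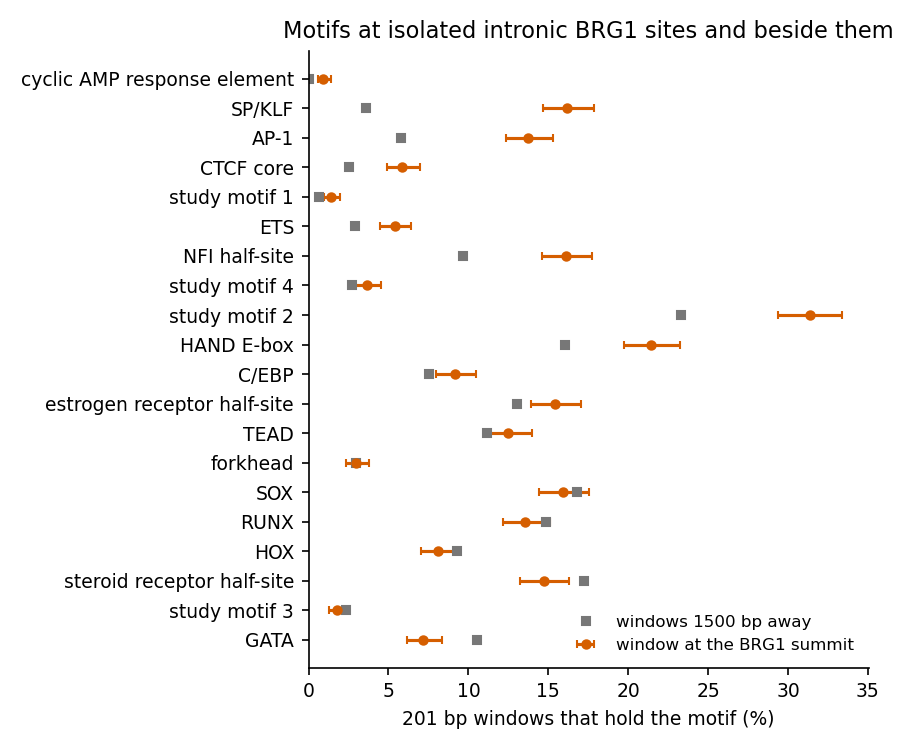
Share of windows (100 bp to either side of their centre, %) that hold each motif at the summits of the 2080 isolated intronic sites (circles, with 95% Wilson intervals) and 1500 bp to either side (squares, 4160 windows), ordered by the ratio of the shares. AP-1 stood at 13.75% against 5.77% and GATA at 7.16% against 10.6%.

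Motifs were counted as exact letters on both strands, and a match describes the sequence and not a bound factor. AP-1 (TGANTCA) was found in 286 windows (13.75%, 12.3% to 15.3%) and in 5.77% of the 4160 flanking windows, a ratio of 2.38. Isolated intergenic and clustered intronic sites had similar shares, 13.0% and 12.4%, whereas promoter sites had 3.57% and all reproducible sites 6.30%. Among windows of the same length at the end of RefSeq's promoter sequences of this build, 5.39% held it. The share of AP-1 windows did not rise with BRG1 fold step by step. It was 14.7% in the weakest quintile, 17.1% in the strongest and 11.8% to 12.7% between them. PBRM1 was at 50.6% ± 7.93 of sites with the motif and at 49.0% ± 6.47 of sites without (SD, n = 3), lower with the motif in replicate 1 and higher in replicates 2 and 3.

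Of the other letters, the NFI half-site (TTGGCA) stood at 16.1% against 9.69% beside the sites, the E-box CATCTG that HAND factors can read at 21.4% against 16.0%, the ETS letters CGGAAG at 5.38% against 2.91%, the CTCF core AGGGGGC at 5.87% against 2.50% and the SP/KLF box GGGCGG at 16.2% against 3.61%. Among isolated intronic sites the share with GGGCGG was 33.2% in the strongest quintile and 9.86% in the weakest, and it was 57.7% at promoter sites. The cyclic AMP response element TGACGTCA, which CREB and ATF factors read, was rare, in 19 windows (0.913%) against 0.0481%, and it does not match the AP-1 letters. It was at 1.15% of isolated intergenic and 0.802% of clustered intronic sites. The cyclic AMP response element, the SP/KLF box and the ETS letters all hold CpG. This dinucleotide was itself more frequent at the summits, and its part in these shares was not tested.

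TEAD letters (GGAATG) were found in 260 of the 2080 windows (95% Wilson interval 11.1% to 13.99%) and in 11.2% beside them, inside that interval. RUNX letters (TGTGGT) stood at 13.6% against 14.9%, the forkhead letters TGTTTAC at 2.98% against 2.96%, and the steroid receptor half-site TGTTCT, which progesterone receptor can bind, at 14.7% against 17.2%. GATA letters (AGATAA) were fewer, at 7.16% (6.13% to 8.35%) against 10.6%. Isolated intergenic and clustered intronic sites held them at 5.58% and 5.61%. The part of base composition in these shares was not tested. Of the 4 motifs that the study drew from its own PBRM1 and BRG1 peaks, TCCCAG was found in 31.3% of windows against 23.3%, CCAGGGCCT in 1.39% against 0.649%, GACCACT in 1.78% against 2.36% and TCGGTG in 3.65% against 2.69%. The study selected these letters on these libraries, so the shares are not independent evidence.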

How the data were processed

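ChIC-Seq libraries of WT D4 uterine stromal cells (3 BRG1, 3 PBRM1) were used. The authors aligned fragments to mm10 and called peaks with MACS 2.2.7.1 without a control library, at q 0.05, for each library and for the pooled fragments. The deposited fold is the ratio of the fragment pileup to the local background of the same library, the deposited signal is the pileup, and the deposited −log10 values are those of p and q. The 2 IgG libraries were not analysed here.

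Peaks were classified against GENCODE vM21 with any overlap of at least 1 bp. The host was the shortest protein-coding gene around a site, or another gene where there was none. Shares were compared within PBRM1 libraries by exact permutation of signs, and libraries by exact permutation, all two-sided (Python 3.11.15, scipy 1.17.1). The 95% intervals (Wilson) take in counting error alone. On simulated peaks, the overlap step recovered 6000 of 6000 planted overlaps among 10000, and classes were recovered in all 480 simulated peaks.

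Sites named were the 12 highest by BRG1, the 8 highest by PBRM1, the 5 highest without PBRM1, those nearest the thresholds, the 10 hosts with most sites, up to 3 hosts per gene list and 5 of the study's candidate targets. Further list members were named after their values were seen. The sites, gene lists and motifs were chosen with earlier results of these data known. Alternatives changed the distances, overlap, peak threshold, window and replicates, and those on repeated sequence, RefSeq introns and long introns were added after seeing the data. A single list member with its values is not reported here.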

Additional observations from a re-analysis of the deposited data

How the results depend on the processing

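The lower PBRM1 share at isolated intronic sites kept its direction under all 20 alternatives of each class comparison, at −8.20 to −1.04 points against isolated intergenic, −13.8 to −8.40 points against clustered intronic and −47.2 to −23.5 points against promoter sites, but no exact permutation of 3 signs can go below p = 0.25. The mean PBRM1 share of 49.2% itself fell to 25.9% with PBRM1 peaks of −log10 q of at least 5 and to 27.4% where at least 50% of the BRG1 peak had to be covered. The number of sites ran from 1671 with isolation of 25 kb to 2879 without BRG1 replicate 2. The pooled PBRM1 overlap of 91.5% was 80.5% where at least 50% of the BRG1 peak had to be covered, 78.9% with PBRM1 peaks of −log10 q of at least 5, and 84.1% to 85.9% without 1 BRG1 replicate, where peaks absent from that replicate enter. The AP-1 share of 13.75% was 25.3% in windows of 250 bp to either side and 28.5% over whole peaks, which hold more bases. The share in the first intron was 35.2% among sites that RefSeq also places in an intron. The lower intronic share of PBRM1 peaks reversed to a difference of 0.693 points among the 10000 peaks with the highest −log10 q, and the cause was not tested. With replicate numbers as a block that difference was −6.47 points over all peaks (exact permutation of signs, p = 0.25), as without the block, and whether the numbers pair the libraries is not stated. A missing PBRM1 peak is a call made in that library alone, since 68.5% of the 531 sites without a replicate peak had a pooled one. Depth and peak counts were not in the same order among the PBRM1 replicates. PBRM1 replicate 3 had the most fragments of these, 16505239, but the fewest peaks, 21912. PBRM1 replicate 1 had 8868777 fragments and 22976 peaks. Among the BRG1 replicates the order was the same, with 40610 peaks from 14595089 fragments, 37596 from 11740786 and 36656 from 11506964. The part of depth in the calls was not tested.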

Other observations

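Per Mb of eligible intron in protein-coding genes, isolated intronic sites were densest on chromosome 11, with 3.30 sites, and chromosome 8, with 3.04, and sparsest on chromosome 3, with 1.64. Chromosome 8 carries the 26 sites in *Gm20388*.

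The 269 sites in hosts that do not code for protein lay closer to the host TSS, at a median of 18520 bp against 46479 bp in protein-coding hosts, and 49.4% against 36.2% were in the first intron. Of all 2080 sites, 91 lay in a host transcript with 1 intron, which is then the first, and 47 of these were in protein-coding hosts. Positions in the other hosts were not set against eligible bases, and the part of gene structure was not tested. The PBRM1 share of the 269 sites was 52.2% ± 6.41 against 48.8% ± 6.66 (SD, n = 3 PBRM1 libraries), and it was higher in each library, with 46.5% against 42.0%, 59.1% against 55.3% and 50.9% against 49.1%. The difference was not tested.

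AP-1 matches thinned out with distance from the summit, apart from its immediate surroundings. In all, 61 matches lay within 24 bp of the summit, 98 at 25 to 49 bp, 169 at 50 to 99 bp, 120 at 100 to 149 bp, 97 at 150 to 199 bp and 80 at 200 to 250 bp.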
